A study of Mus musculus with 12 samples.

Results

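The MHC class I pathway was followed through 10 genes of the 54532 in each count table. They were taken by name for their place in the pathway, with earlier results of these data known. H2-K1 and H2-D1 are the classical class I heavy chains, and B2m is the light chain that pairs with them. Tap1, Tap2, Tapbp and Erap1 carry, load and trim peptides, Psmb8 and Psmb9 are catalytic subunits of the immunoproteasome, and Nlrc5 is the transcriptional activator of class I genes. RNAseq was performed on 12 samples of mouse brainstem progenitors, 3 in each of 4 groups. The cells came from Nestin TVA pups with p53 floxed alleles on a C57BL/6 background, taken at postnatal days 3 to 5, and were grown in EGF and FGF2. RCAS vectors, which infect only cells that carry the TVA receptor, here expressed from the nestin promoter, delivered the BMP receptor ACVR1 as ACVR1 WT, ACVR1 R206H, ACVR1 WT and H3.1K27M, or ACVR1 R206H and H3.1K27M. All 4 groups therefore carried an ACVR1 virus, no group was uninfected, and the labels list no Cre vector. The groups with H3.1K27M carried an added vector, and no group carried wild-type H3.1 as its counterpart. In the comparisons with H3.1K27M, the mutation and the added vector therefore cannot be told apart. The labels give all samples the same strain, and neither the MHC haplotype of the pups nor a sequencing batch is given in the sources used here.

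Nearly all nucleated cells present peptides from their own proteins on class I molecules. The proteasome cuts the proteins, the TAP1 and TAP2 transporter carries the peptides into the endoplasmic reticulum, ERAP1 trims them, and tapasin, the product of Tapbp, holds the empty heavy chain and B2m beside the transporter until a peptide binds. Neural cells are known for low class I levels at rest and for raising the whole pathway under interferon, and PRC2, the complex that H3K27M inhibits, is known to silence class I genes in some tumours.

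Each library held between 19315020 and 26456257 counts, and the counts of the 10 genes lay between 26 and 12244 per sample, so all 10 passed the filter of a mean count of at least 10. Levels are given as CPM, the count scaled to the size of its library after TMM normalization. The library of ACVR1 WT replicate 1 stood apart: the chi-square per degree of freedom between it and the other ACVR1 WT replicates was 75.3 and 129, against 17 between those 2 replicates and at most 7.07 within any other group. The biological coefficient of variation was 0.275 within ACVR1 WT and between 0.0453 and 0.0594 within the other groups. The calls of the 10 genes and the counts of the other gene lists that use ACVR1 WT are therefore given with and without that library. The study's methods describe sample sizes given in its legends as cell lines from independent litters, but neither the labels nor the methods tie these 12 libraries to litters. The p values measure the spread between these samples, part of which may be technical. The summed level of 10 neural progenitor markers was between 4332 and 6079 CPM in the 12 samples, with no marker at 0 in any group, but Fabp7 and Vim made up most of it. With H3.1K27M, 4 of the 10 markers fell with ACVR1 WT, where 23% of all genes were called, and 5 fell and 2 rose with ACVR1 R206H, where 56.5% were. Leaving out ACVR1 WT replicate 1, 6 fell and 3 rose with ACVR1 WT, where 52.6% of all genes were called. Hes5 had 72.5 and 68.4 CPM on average with ACVR1 WT and ACVR1 R206H and 9.52 and 9.0 CPM with H3.1K27M added, Pax6 had 70.6 and 68.8 against 25.9 and 38.8 CPM, and Sox9 had 256 and 234 against 142 and 159.6 CPM. The part of this change in the class I results was not tested.

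The promoters of the 3 genes that form the class I molecule carry the letters of known class I control elements, and they are shown because those genes and the activator that works through such elements were all higher in the comparisons with H3.1K27M below. RefSeq promoter windows of build GRCm38.p6, from 250 bases before to 50 bases after the start site, were found for 8 of the 10 genes. The X2 and Y boxes were searched on either strand as TGACG and ATTGG with exactly 20 bases between them, a spacing read from these promoters themselves. The interferon regulatory factor core was searched as AANNGAAA, and a kB element as the 10 letters that open the upstream part of H2-D1. The capitals mark these letters, no match overlapped another, and positions are counted from the annotated start site, which sits at a different place relative to the elements in each gene. The stretch of H2-K1 is chr17:34000349-34000468 on the minus strand, 121 to 2 bases before its start site. The stretch of B2m is chr2:122147540-122147648 on the plus strand, 147 to 39 bases before its start site. For H2-D1, only the 2 short stretches that hold the matches are shown, chr17:35262923-35262951 and chr17:35262993-35263022 on the plus strand, since an annotated transcript of the gene covers them.
H2-K1: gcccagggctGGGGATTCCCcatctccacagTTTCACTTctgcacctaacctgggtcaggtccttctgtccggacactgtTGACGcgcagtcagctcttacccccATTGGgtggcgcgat
B2m: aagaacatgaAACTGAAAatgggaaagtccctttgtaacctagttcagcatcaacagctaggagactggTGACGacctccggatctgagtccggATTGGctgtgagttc
H2-D1, upstream part: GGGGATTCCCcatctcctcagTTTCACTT
H2-D1, X2 and Y boxes: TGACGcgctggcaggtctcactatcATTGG

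H2-K1 and H2-D1 shared 28 of the 29 letters of the upstream part and 23 of the 30 letters from the X2 to the Y box. B2m has the X2 and Y boxes at the same spacing, but only 3 of its 20 letters between them matched H2-K1. The X2 and Y boxes at that spacing occurred in 0.0945% of 32817 promoter windows, the kB element in 0.107% and the interferon regulatory factor core in 23.9%. Since the spacing was read from these promoters and the kB letters from H2-D1, these shares do not test enrichment in the 3 genes. Of the 27 genes with such X2 and Y boxes, 4 encode B2m or a class I heavy chain. Of the other windows, that of Erap1 held an interferon regulatory factor core across its start site, and those of Tap1, Tapbp, Psmb8 and Psmb9 matched none of the 3 searches. The windows of Tap1, Tapbp and Psmb9 hold the letters of an X2 or a Y box, which were not searched apart from the spaced pair.

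The comparisons with and without H3.1K27M asked how the pathway stood when the mutant histone was added to either receptor. H3.1K27M was accompanied by higher levels of most of the pathway, and the heavy chains, B2m, Tap1, Psmb8 and Nlrc5 more than doubled with either receptor. With ACVR1 WT, 7 of the 10 genes rose and none fell at an adjusted p under 0.05 (quasi-likelihood F test of edgeR, Benjamini-Hochberg), where 23% of 15385 genes were called, 12.6% as higher and 10.4% as lower. With ACVR1 R206H, all 10 rose, where 56.5% of 15482 genes were called, 29.1% of all genes tested as higher and 27.4% as lower. In each of the 2 comparisons 6 of the 10 genes were called and at least 2-fold higher, against 5.95% of all genes tested with ACVR1 WT and 8.51% with ACVR1 R206H. The median log2 fold change of the 10 genes was 1.22 in each, against -0.021 and -0.0018 over all genes tested. Since the 10 genes were chosen with earlier results of these data known, these shares and medians describe them and do not test them as a set. The 2 comparisons share no sample. All cells of a sample were lysed together, so that more cells with class I transcripts and more transcripts per cell cannot be told apart.

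**Figure D1:**
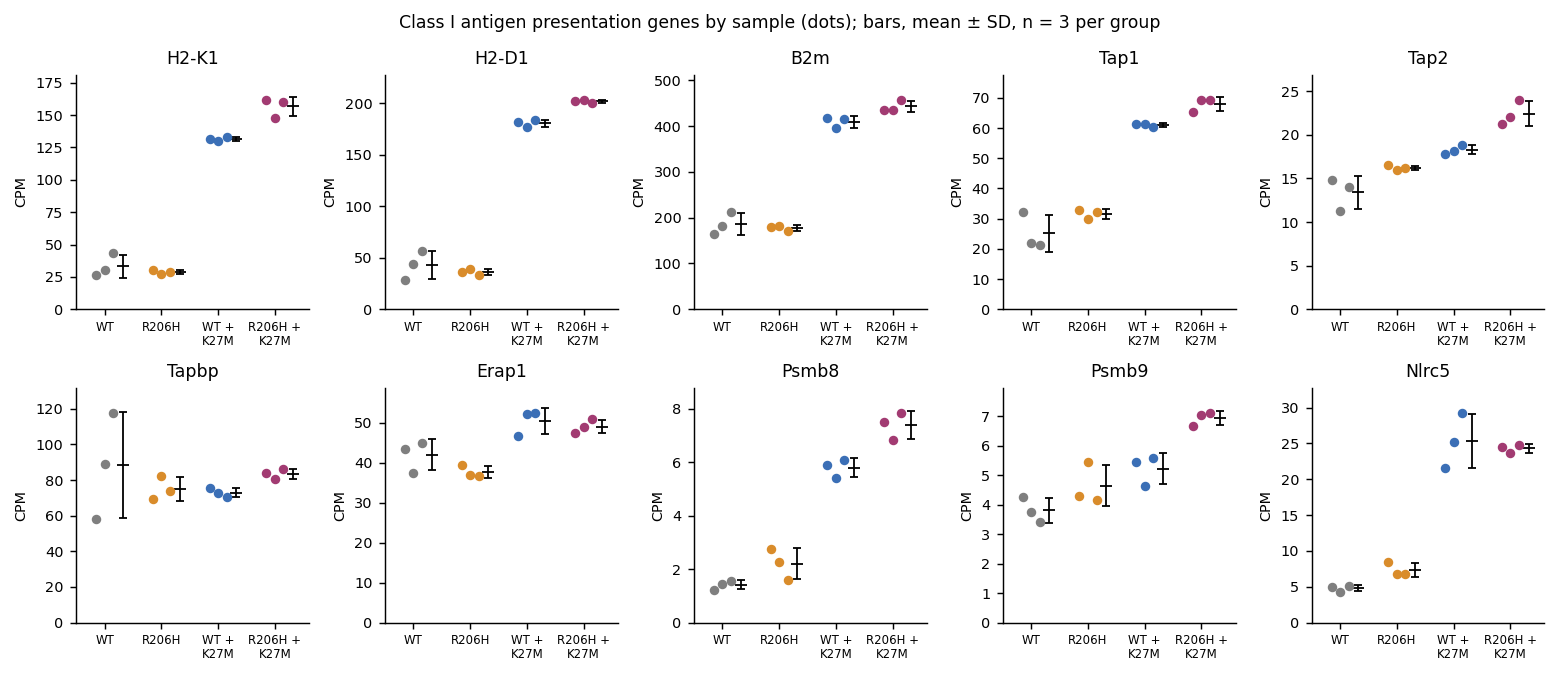
Level of each of the 10 genes in CPM (vertical axis, from 0) in the 3 samples of each of the 4 groups (dots), with the mean and SD beside them. The samples with H3.1K27M lie above all samples without it for 8 genes, while Tapbp overlaps between groups and Psmb9 overlaps between ACVR1 R206H and ACVR1 WT and H3.1K27M. The share of all genes with such a split was not counted.

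**Figure D2:**
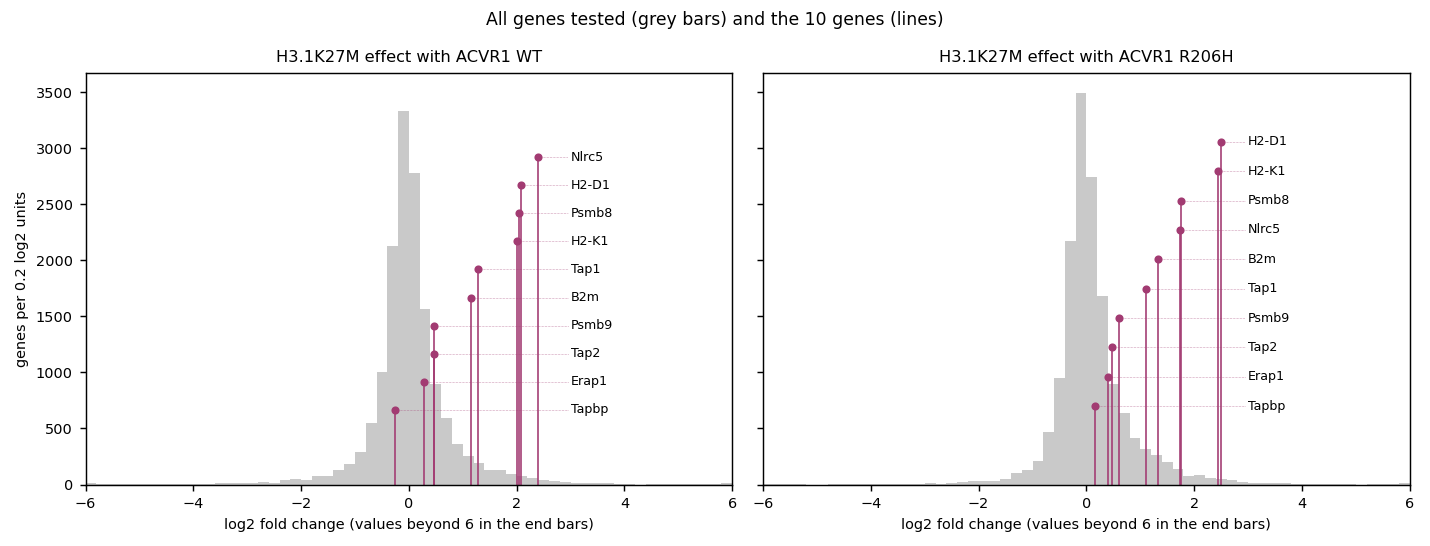
Number of genes (vertical axis) per 0.2 units of log2 fold change (horizontal axis) with H3.1K27M, over all genes tested (grey bars), with the 10 genes as lines whose heights only separate the labels. Of the 10 genes, 6 lie beyond a log2 fold change of 1 in each comparison, and Tapbp lies nearest 0 or below it.

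H2-K1 (ENSMUSG00000061232, mm10 chromosome 17, positions 33996017 to 34000347, minus strand) had 26.5, 30.0 and 43.1 CPM with ACVR1 WT and 30.3, 27.5 and 29.1 CPM with ACVR1 R206H. With H3.1K27M it had 131, 129.9 and 133 CPM in the ACVR1 WT samples and 162, 148 and 160.0 CPM in the ACVR1 R206H samples. Every sample with H3.1K27M was above every sample without it. H2-K1 had a log2 fold change with H3.1K27M of 2.00 ± 0.18 (SE) with ACVR1 WT (edgeR adjusted p = 0.0018) and 2.45 ± 0.06 (SE) with ACVR1 R206H (edgeR adjusted p = 1.1e-10).

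H2-D1 (ENSMUSG00000073411, chromosome 17, positions 35262730 to 35267499, plus strand) stood at 28.7, 44.2 and 56.5 CPM with ACVR1 WT and 36.6, 39.1 and 32.8 CPM with ACVR1 R206H. It reached 182, 177 and 183 CPM in the ACVR1 WT samples that carried H3.1K27M and 202, 204 and 201 CPM with ACVR1 R206H and H3.1K27M. As for H2-K1, the samples with and without H3.1K27M did not overlap. H2-D1 had a log2 fold change of 2.08 ± 0.23 (SE) with ACVR1 WT (edgeR adjusted p = 0.0032) and 2.49 ± 0.06 (SE) with ACVR1 R206H (edgeR adjusted p = 1.1e-10). Only 1.24% and 1.14% of the genes tested with ACVR1 R206H had a larger log2 fold change than H2-K1 and H2-D1.

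B2m (ENSMUSG00000060802, chromosome 2, positions 122147686 to 122153083, plus strand) is encoded away from the MHC and was the most abundant of the 10 transcripts. It had 164, 182 and 211 CPM with ACVR1 WT and 180.4, 183 and 170.0 CPM with ACVR1 R206H. Its levels were 418, 395 and 415 CPM in the ACVR1 WT samples that carried H3.1K27M and 436, 435 and 458 CPM with ACVR1 R206H and H3.1K27M. All samples with H3.1K27M were higher than all without it. The light chain had a log2 fold change of 1.15 ± 0.11 (SE) with ACVR1 WT (edgeR adjusted p = 0.0019) and 1.33 ± 0.04 (SE) with ACVR1 R206H (edgeR adjusted p = 1.0e-09), smaller in size than that of either heavy chain.

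Class I heavy chains are polymorphic and near copies of each other, and the counting left out reads with several matches, so the haplotype of a library and its closeness to the C57BL/6 reference can change their counts. Of all stretches of 100 bases in the annotated transcripts (GENCODE M21), 99.0% of those of H2-K1, 96.4% of those of H2-D1 and 100% of those of B2m occur in no other gene's transcript. At 50 bases the shares were 90.4%, 87.2% and 100%. The ratio of H2-K1 to H2-D1 counts, which does not depend on library scaling, was between 0.680 and 0.926 in the ACVR1 WT samples, between 0.701 and 0.886 with ACVR1 R206H, between 0.723 and 0.735 with ACVR1 WT and H3.1K27M, and between 0.726 and 0.801 with ACVR1 R206H and H3.1K27M. The 4 differences in mean log2 ratio lay between -0.10 and 0.09, with exact two-sided permutation p of 0.3 to 0.9 and an adjusted p of 0.9 in each of the 4. The smallest p that 3 samples against 3 allow is 0.1, so this test could not pass 0.05 and does not show that the ratio was stable. As a share of the summed counts of H2-K1, H2-D1 and the H2-Q genes, H2-K1 took 0.379 to 0.434 with ACVR1 WT, 0.385 to 0.425 with ACVR1 R206H, 0.380 in each of the 3 samples with ACVR1 WT and H3.1K27M, and 0.381 to 0.396 with ACVR1 R206H and H3.1K27M. The last 2 of these groups did not overlap, with a difference in mean log2 share of 0.041 (exact permutation p = 0.1, adjusted p = 0.4). Of the 10 genes, 7 lie on chromosome 17, and B2m, Erap1 and Nlrc5 lie elsewhere. The part of the haplotype in the class I counts was not tested.

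Tap1 (ENSMUSG00000037321, chromosome 17, positions 34187553 to 34197225, plus strand) had 32.3, 22 and 21.3 CPM with ACVR1 WT, 32.9, 29.8 and 32.3 CPM with ACVR1 R206H, 61.4, 61.2 and 60.5 CPM with ACVR1 WT plus H3.1K27M, and 65.2, 69.3 and 69.4 CPM with ACVR1 R206H and H3.1K27M. ACVR1 WT replicate 1 was the highest of its group and close to the ACVR1 R206H samples. Tap1 had a log2 fold change with H3.1K27M of 1.29 ± 0.17 (SE) with ACVR1 WT (edgeR adjusted p = 0.0049) and 1.11 ± 0.06 (SE) with ACVR1 R206H (edgeR adjusted p = 1.7e-08).

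Tap2 (ENSMUSG00000024339, chromosome 17, positions 34203527 to 34216321, plus strand), which encodes the partner subunit of the transporter, moved less. It had 14.8, 11.3 and 14.1 CPM with ACVR1 WT, 16.5, 16.0 and 16.2 CPM with ACVR1 R206H, 17.8, 18.2 and 18.8 CPM with ACVR1 WT plus H3.1K27M, and 21.2, 22 and 24 CPM with ACVR1 R206H and H3.1K27M. The groups did not overlap, but the steps between them were small. Tap2 had a log2 fold change with H3.1K27M of 0.46 ± 0.13 (SE) with ACVR1 WT (edgeR adjusted p = 0.045) and 0.48 ± 0.07 (SE) with ACVR1 R206H (edgeR adjusted p = 0.00012). The call with ACVR1 WT was lost without ACVR1 WT replicate 2, with an adjusted p of 0.10, and without ACVR1 WT replicate 3, with an adjusted p of 0.065. It was also lost without any of the 3 ACVR1 WT and H3.1K27M samples, with adjusted p of 0.12, 0.14 and 0.15. Exons of antisense transcripts cover 18.5% of the exon bases of Tap2, and counting without strand leaves out the reads there.

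Tapbp (ENSMUSG00000024308, chromosome 17, positions 33915899 to 33929292, plus strand) was the exception in the pathway. Its levels were 58.0, 89.3 and 118 CPM with ACVR1 WT, 69.2, 82.4 and 73.9 CPM with ACVR1 R206H, 75.3, 72.7 and 70.4 CPM with ACVR1 WT plus H3.1K27M, and 84.0, 80.7 and 86.2 CPM with ACVR1 R206H and H3.1K27M. The ACVR1 WT samples alone spanned the range of all other groups. The log2 fold change with H3.1K27M was -0.27 ± 0.24 (SE) with ACVR1 WT (edgeR adjusted p = 0.46) and 0.17 ± 0.06 (SE) with ACVR1 R206H (edgeR adjusted p = 0.034). The latter call rested on groups that overlapped, and it was lost without ACVR1 R206H replicate 1 or 3, with adjusted p of 0.15 and 0.097, or without ACVR1 R206H and H3.1K27M replicate 1 or 3, with adjusted p of 0.096 and 0.13. Without ACVR1 WT replicate 1, Tapbp fell with H3.1K27M and ACVR1 WT (log2 fold change -0.50, edgeR adjusted p = 0.0050). Exons of other genes, among them Zbtb22, cover 29.0% of its exon bases.

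Erap1 (ENSMUSG00000021583, chromosome 13, positions 74639568 to 74693201, plus strand) had 43.5, 37.5 and 45.0 CPM with ACVR1 WT, 39.3, 37.0 and 36.8 CPM with ACVR1 R206H, 46.8, 52.2 and 52.4 CPM with ACVR1 WT plus H3.1K27M, and 47.4, 48.8 and 50.8 CPM with ACVR1 R206H and H3.1K27M. All samples with H3.1K27M were above all without it, by a narrow margin. The log2 fold change of this peptide-trimming enzyme was 0.28 ± 0.10 (SE) with ACVR1 WT, which missed the threshold (edgeR adjusted p = 0.082), and 0.39 ± 0.05 (SE) with ACVR1 R206H (edgeR adjusted p = 7.1e-05). Without ACVR1 WT replicate 1 the change with ACVR1 WT passed (0.30, edgeR adjusted p = 0.027).

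Of the immunoproteasome subunits, Psmb8 rose with H3.1K27M and either receptor, and Psmb9 passed the threshold with ACVR1 R206H. Psmb8 (ENSMUSG00000024338, chromosome 17, positions 34197721 to 34201454, plus strand) had 1.23, 1.45 and 1.56 CPM with ACVR1 WT, 2.75, 2.28 and 1.60 CPM with ACVR1 R206H, 5.89, 5.42 and 6.10 CPM with ACVR1 WT plus H3.1K27M, and 7.50, 6.85 and 7.85 CPM with ACVR1 R206H and H3.1K27M. The groups with and without the mutant histone were far apart. Its log2 fold change with H3.1K27M was 2.04 ± 0.16 (SE) with ACVR1 WT (edgeR adjusted p = 0.0015) and 1.76 ± 0.17 (SE) with ACVR1 R206H (edgeR adjusted p = 3.6e-06).

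Psmb9 (ENSMUSG00000096727, chromosome 17, positions 34181987 to 34187764, minus strand), read from a start site next to that of Tap1 on the other strand, had 4.27, 3.73 and 3.42 CPM with ACVR1 WT, 4.30, 5.43 and 4.16 CPM with ACVR1 R206H, 5.44, 4.62 and 5.58 CPM with ACVR1 WT plus H3.1K27M, and 6.65, 7.03 and 7.10 CPM with ACVR1 R206H and H3.1K27M. The samples of ACVR1 R206H overlapped with those of ACVR1 WT and with those of ACVR1 WT and H3.1K27M, and only ACVR1 R206H and H3.1K27M stood clear of all other groups. The log2 fold change was 0.47 ± 0.16 (SE) with ACVR1 WT (edgeR adjusted p = 0.080) and 0.60 ± 0.13 (SE) with ACVR1 R206H (edgeR adjusted p = 0.0018). Without ACVR1 WT replicate 1 the former passed (0.56, edgeR adjusted p = 0.019).

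In the immunoproteasome, Psmb8, Psmb9 and Psmb10 take the places of the constitutive subunits Psmb5, Psmb6 and Psmb7. Per kilobase of exon, the ratio of Psmb8 to Psmb5 rose from 0.0159 ± 0.0031 (SD, n = 3) with ACVR1 WT to 0.0718 ± 0.0075 (SD, n = 3) with H3.1K27M added, and from 0.0282 ± 0.0068 to 0.0789 ± 0.0092 with ACVR1 R206H, without overlap between the groups. The exon length is the union over all annotated transcripts, 3381 bases for Psmb8 and 3660 for Psmb9, so the size of a ratio depends on it. The ratio of Psmb9 to Psmb6 was 0.0125 ± 0.00047 with ACVR1 WT, 0.0158 ± 0.0028 with ACVR1 R206H, 0.0173 ± 0.0016 with ACVR1 WT and H3.1K27M and 0.0248 ± 0.00089 with ACVR1 R206H and H3.1K27M. Psmb10 stood closer to the level of its constitutive partner, at a ratio to Psmb7 of 0.423 ± 0.029 with ACVR1 WT, 0.432 ± 0.061 with ACVR1 R206H, 0.469 ± 0.026 with ACVR1 WT and H3.1K27M and 0.562 ± 0.014 with ACVR1 R206H and H3.1K27M. With ACVR1 WT, edgeR called 0 of the 14 constitutive proteasome genes, where 23% of all genes were called. Of the 14, 0 had an unadjusted p under 0.05, against 5963 of 15385 genes. Without ACVR1 WT replicate 1 it also called 0, where 52.6% of all genes were called. In that fit 1 of the 14 had an unadjusted p under 0.05, against 9008 of 15432 genes. With ACVR1 R206H 1 rose and 4 fell, where 56.5% of all genes were called. Psmb5 rose (log2 fold change 0.28, edgeR adjusted p = 0.0046), while Psma7 (-0.23) and Psmb1 (-0.19) fell.

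**Figure D3:**
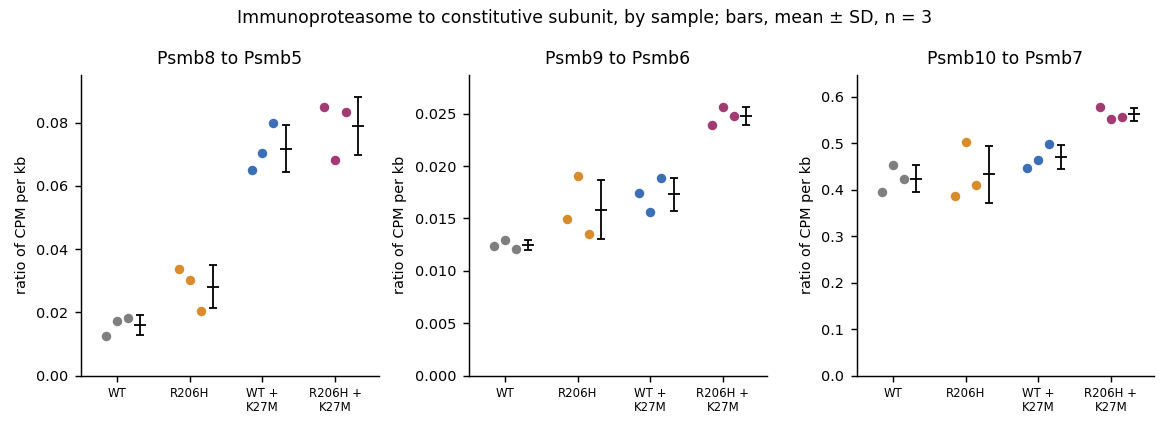
Ratio of CPM per kilobase (vertical axis, from 0) of each immunoproteasome subunit to its constitutive counterpart in the 3 samples of each group (dots), with mean and SD. Psmb8 to Psmb5 separates the samples with H3.1K27M, at 0.0650 to 0.0850, from those without it, at 0.0124 to 0.0336, and Psmb10 to Psmb7 starts at a higher ratio.

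Nlrc5 (ENSMUSG00000074151, chromosome 8, positions 94434356 to 94527272, plus strand) had 4.31 to 5.13 CPM in the ACVR1 WT samples. With ACVR1 R206H it had 8.50, 6.72 and 6.78 CPM, with ACVR1 WT plus H3.1K27M 21.6, 25.2 and 29.3 CPM, and with ACVR1 R206H and H3.1K27M 24.5, 23.7 and 24.8 CPM. The 3 ACVR1 R206H samples lay between ACVR1 WT and the groups with H3.1K27M, which overlapped with each other. Nlrc5 had the largest log2 fold change of the 10 genes with ACVR1 WT, 2.40 ± 0.15 (SE, edgeR adjusted p = 0.00093), and 1.29% of the genes tested had a larger one. With ACVR1 R206H the log2 fold change was 1.74 ± 0.09 (SE, edgeR adjusted p = 2.6e-08).

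Without ACVR1 WT replicate 1, all 10 genes were called with H3.1K27M and ACVR1 WT, where 52.6% of genes were called: 9 rose, with log2 fold changes up to 2.43 for Nlrc5, and Tapbp fell. The 6 genes that more than doubled with ACVR1 WT remained past the threshold in all alternative fits and with every library left out in turn.

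The effect of ACVR1 R206H was compared with that of ACVR1 WT in cells that carried H3.1K27M. Of the 10 genes, 8 rose and none fell, where 20.3% of 15672 genes were called, 11.4% as higher and 8.95% as lower, but the steps were small. The largest log2 fold changes were 0.41 ± 0.11 (SE) for Psmb9 (edgeR adjusted p = 0.020), 0.36 ± 0.10 (SE) for Psmb8 (edgeR adjusted p = 0.031) and 0.30 ± 0.07 (SE) for Tap2 (edgeR adjusted p = 0.0072). H2-K1 rose by 0.26 ± 0.04 (SE, edgeR adjusted p = 0.0011), Tapbp by 0.21 ± 0.04 (edgeR adjusted p = 0.0062), H2-D1 by 0.17 ± 0.04 (edgeR adjusted p = 0.0054), Tap1 by 0.16 ± 0.04 (edgeR adjusted p = 0.022) and B2m by 0.12 ± 0.04 (edgeR adjusted p = 0.048). The samples of the 2 groups did not overlap for any of these 8 genes, but the share of all genes without overlap was not counted. Erap1, with -0.03 ± 0.06 (edgeR adjusted p = 0.73), and Nlrc5, with -0.06 ± 0.09 (edgeR adjusted p = 0.73), were not past the threshold, and their samples overlapped. DESeq2 called 4 of the 10 genes, where it called 16.1% of all genes, and the fit of all 12 samples together called 0, and the count was 4 without ACVR1 WT and H3.1K27M replicate 2 or without ACVR1 R206H and H3.1K27M replicate 3.

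Without H3.1K27M, none of the 10 genes was called between ACVR1 R206H and ACVR1 WT, where 0% of 15066 genes were called by edgeR, 534 had an unadjusted p under 0.05, and DESeq2 called 26 genes and none of the 10. Of the 10 genes, 2 had an unadjusted p under 0.05 in edgeR: Nlrc5, with a log2 fold change of 0.61 ± 0.16 (SE, edgeR adjusted p = 0.94), and Psmb8, with 0.65 ± 0.26 (SE, edgeR adjusted p = 0.94). The samples of Nlrc5, Psmb8 and Tap2 did not overlap between the groups, but the share of all genes without overlap was not counted. The heavy chains had log2 fold changes of -0.19 ± 0.18 (SE) for H2-K1 and -0.24 ± 0.24 (SE) for H2-D1 (edgeR adjusted p = 0.94 for each). Without ACVR1 WT replicate 1, edgeR called 23.1% of genes, 12.1% as higher and 11% as lower, among them 4 of the 10: Tap1 (log2 fold change 0.56, adjusted p = 0.0043) and Nlrc5 (0.65, adjusted p = 0.031) were higher with ACVR1 R206H, and H2-D1 (-0.47, adjusted p = 0.025) and Tapbp (-0.45, adjusted p = 0.030) were lower. In the same fit, 8 of 11 microglia and leukocyte markers tested were lower with ACVR1 R206H and 0 were higher, where 11% of all genes were lower, and their part in the result was not tested.

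**Figure D4:**
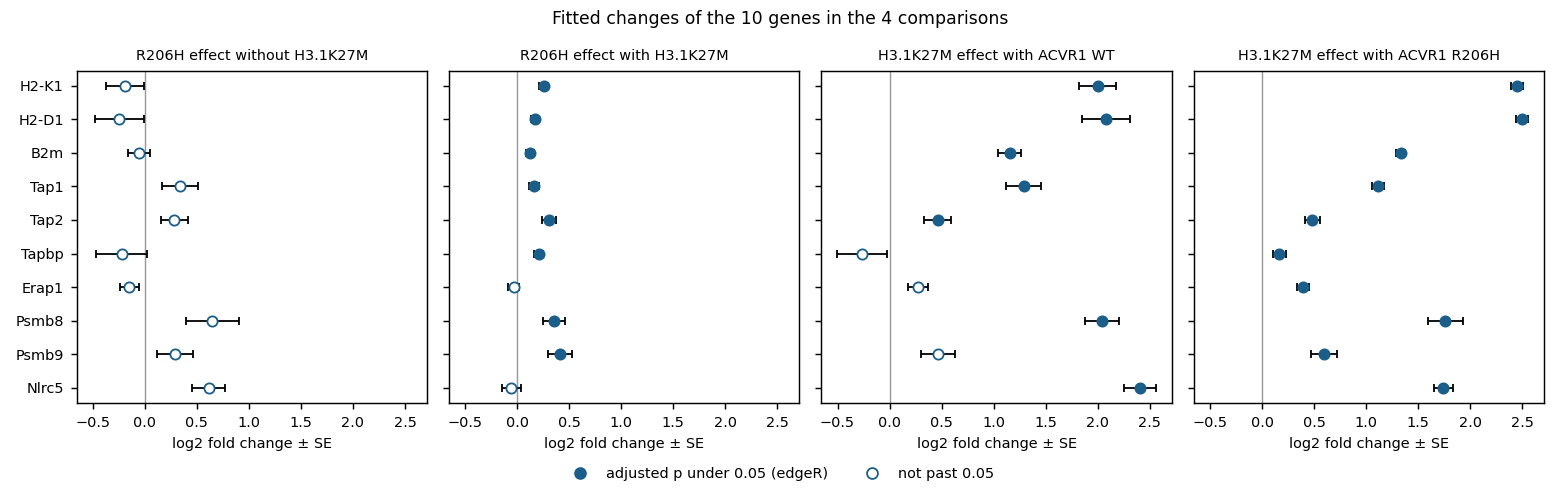
Log2 fold change with its standard error (horizontal axis) of the 10 genes (vertical axis) in the 4 comparisons, filled where edgeR's adjusted p was under 0.05. The H3.1K27M panels reach 2.40 and 2.49, while no gene exceeds 0.65 in the R206H panels. The error bars are wider where the ACVR1 WT group enters, except for Psmb8 in the H3.1K27M panels.

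The interaction, fitted on all 12 samples, asked whether the change with H3.1K27M differed between ACVR1 R206H and ACVR1 WT. None of the 10 genes passed, where 0.0712% of 15445 genes were called by edgeR, 0.0583% as larger and 0.0129% as smaller, and DESeq2, which called 0.622% of genes, also called none of the 10. Over all genes tested, 1183 of 15445 had an unadjusted p under 0.05 in edgeR. Of the 10, 2 did so: Nlrc5, whose log2 fold change with H3.1K27M was smaller by 0.66 ± 0.18 (SE) with ACVR1 R206H (fitted as -0.66, edgeR adjusted p = 0.40), and H2-K1, for which it was larger by 0.45 ± 0.19 (SE, edgeR adjusted p = 0.64). A difference between the receptors was thus not detectable with these samples, which does not show that the changes were alike. Without ACVR1 WT replicate 1, edgeR called 26.6% of genes, among them 6 of the 10. H2-K1 (0.59), H2-D1 (0.65), Tapbp (0.67) and B2m (0.27) had larger log2 fold changes with ACVR1 R206H, and Nlrc5 (-0.69) and Tap1 (-0.39) smaller ones, with adjusted p between 0.0012 and 0.033.

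Compared per kilobase of exon, taken as the union of all annotated exons of a gene, B2m led in every group, from 207 ± 7.80 CPM per kilobase (SD, n = 3) with ACVR1 R206H to 515 ± 14.9 with ACVR1 R206H and H3.1K27M. Without H3.1K27M, Tapbp came next, at 24.3 ± 8.23 with ACVR1 WT and 20.7 ± 1.84 with ACVR1 R206H, ahead of H2-D1 (16.7 ± 5.41 and 14.0 ± 1.23) and H2-K1 (11.3 ± 2.96 and 9.86 ± 0.487). With ACVR1 WT, the ranges of Tapbp and H2-D1 and those of H2-D1 and H2-K1 overlapped over the samples, but the order was the same in each of the 3 samples. With H3.1K27M the heavy chains passed Tapbp: H2-D1 reached 70.0 ± 1.31 with ACVR1 WT and 78.4 ± 0.557 with ACVR1 R206H, H2-K1 44.8 ± 0.596 and 53.3 ± 2.57, and Tapbp 20.1 ± 0.684 and 23.1 ± 0.768. Nlrc5, Psmb8 and Psmb9 were the 3 lowest in every group, between 0.419 and 2.99 CPM per kilobase.

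Some of the other class I heavy chains rose with H3.1K27M as H2-K1 and H2-D1 did, while others were not called or fell. Of 18 such genes, 13 were tested in each H3.1K27M comparison: 7 rose and 1 fell with ACVR1 WT, and 10 rose and 2 fell with ACVR1 R206H, where 23% and 56.5% of all genes were called, with median log2 fold changes of 0.74 and 1.14. With ACVR1 WT, 7 rose and 3 fell once ACVR1 WT replicate 1 was left out, where 26.9% of all genes were higher and 25.6% lower, with a median of 0.53. The 3 that fell in that fit were Fcgrt (-0.97), H2-M5 (-1.18) and Mr1 (-0.41). H2-Q6 had the largest values, 3.44 ± 0.29 (SE, edgeR adjusted p = 0.0016) and 4.09 ± 0.21 (SE, edgeR adjusted p = 1.9e-08), from levels of 0.259 to 0.616 CPM without H3.1K27M. H2-Q4 rose by 2.62 and 2.59 and H2-Q7 by 2.78 in each comparison. H2-T23, which encodes the nonclassical molecule Qa-1, rose by 1.05 and 1.38, and it was also higher with ACVR1 R206H than with ACVR1 WT among the samples that carried H3.1K27M (0.71 ± 0.09, edgeR adjusted p = 0.00016). Mr1, which presents microbial metabolites, fell by 0.38 and 0.40. At 50 bases, only 68.0% of the stretches of H2-Q6, 73.6% of those of H2-Q7 and 65.5% of those of H2-T22 occur in no other gene's transcript, so the split of reads among these copies is uncertain.

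Of 13 other genes of peptide supply and loading, 1 rose with H3.1K27M and ACVR1 WT, the chaperone Canx (log2 fold change 0.43, edgeR adjusted p = 0.029), and with ACVR1 R206H 5 rose and 2 fell, a share close to the 56.5% of all genes called there. With ACVR1 WT, 6 rose and 0 fell once ACVR1 WT replicate 1 was left out, where 52.6% of all genes were called. Tapbpl, the tapasin relative that edits peptides outside the loading complex, had log2 fold changes of 0.09 and -0.06 (edgeR adjusted p = 0.68 and 0.69). Of 28 regulators of class I genes, 2 rose and 2 fell with ACVR1 WT, and 7 rose and 12 fell with ACVR1 R206H, where 23% and 56.5% of all genes were called, so these counts say little about the regulators as a list. Leaving out ACVR1 WT replicate 1, 7 rose and 6 fell with ACVR1 WT. Ifngr2, a chain of the interferon gamma receptor, rose by 0.72 and 0.61, and Jak2, the kinase attached to it, fell by 0.75 and 0.73. Irf1 was not past the threshold, with 0.39 ± 0.14 (edgeR adjusted p = 0.091) and 0.07 ± 0.07 (edgeR adjusted p = 0.38). Irf2 had 0.21 (edgeR adjusted p = 0.12) and rose with ACVR1 R206H by 0.19 (edgeR adjusted p = 0.041). Irf1 (0.53, edgeR adjusted p = 0.0031) and Irf2 (0.24, edgeR adjusted p = 0.039) rose with ACVR1 WT when replicate 1 of that group was left out. Rfx5, which binds the X box, had -0.11 ± 0.17 (edgeR adjusted p = 0.67) and fell with ACVR1 R206H (-0.38, edgeR adjusted p = 6.2e-05), and the former value was 0.072 (edgeR adjusted p = 0.60) without ACVR1 WT replicate 1. Ezh2, the catalytic subunit of PRC2, ranged from 60.4 to 133 CPM within ACVR1 WT and fell with H3.1K27M and ACVR1 R206H (-0.57, edgeR adjusted p = 3.9e-07). With H3.1K27M and ACVR1 WT its log2 fold change was -0.17 (edgeR adjusted p = 0.69), and 0.23 (edgeR adjusted p = 0.072) when ACVR1 WT replicate 1 was left out.

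Interferon-stimulated genes were higher with H3.1K27M as well. Of 24 listed genes 23 were tested: 16 rose and 0 fell with ACVR1 WT, and 22 rose and 1 fell with ACVR1 R206H, where 12.6% and 29.1% of all genes were higher, with median log2 fold changes of 1.31 and 1.73. With ACVR1 WT, 18 rose and 1 fell once ACVR1 WT replicate 1 was left out, where 26.9% of all genes were higher and 25.6% lower, with a median of 1.10. Their summed level was 223 to 278 CPM with ACVR1 WT, 226 to 234 CPM with ACVR1 R206H, 433 to 518 CPM with ACVR1 WT plus H3.1K27M and 483 to 546 CPM with ACVR1 R206H and H3.1K27M. Cxcl10, a chemokine that attracts T cells, had 0.259 to 0.806 CPM in the 6 samples without H3.1K27M and 20.4 to 28.6 CPM in the 6 samples with it, and Ifit1 rose by 3.09 and 3.27 on the log2 scale. Of 7 class II genes, 3 of 5 tested rose with ACVR1 WT and 4 of 6 with ACVR1 R206H, beside the same 12.6% and 29.1%, from a summed level of 12.2 to 17.6 CPM with ACVR1 WT to 22.7 to 24.6 CPM with H3.1K27M. Leaving out ACVR1 WT replicate 1, 3 of 6 tested class II genes rose and 1 fell, beside the same 26.9% and 25.6%.

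Microglia and leukocytes express class I and class II genes, and 15 of their markers were summed in each sample. The sum was 9.53, 37.1 and 58.7 CPM with ACVR1 WT and 15.9 to 20.8 CPM with ACVR1 R206H, but 2.00 to 2.49 CPM with ACVR1 WT plus H3.1K27M and 3.16 to 4.04 CPM with ACVR1 R206H and H3.1K27M. With H3.1K27M, 9 of 10 markers tested fell with ACVR1 WT, where 10.4% of all genes were lower, and 6 of 7 fell and 1 rose with ACVR1 R206H, where 27.4% were lower. Leaving out ACVR1 WT replicate 1, 9 of 10 also fell with ACVR1 WT, where 25.6% of all genes were lower. The marker that rose with ACVR1 R206H was the microglia marker P2ry12, which had 1.15, 1.06, 1.06 and 2.12 CPM on average with ACVR1 WT, ACVR1 R206H, ACVR1 WT plus H3.1K27M and ACVR1 R206H plus H3.1K27M, and so made up much of the sum in the groups with H3.1K27M. In total over the 3 samples, 10 of the 15 markers had at most 3 counts with ACVR1 WT and H3.1K27M and 8 with ACVR1 R206H and H3.1K27M, and 3 and 1 of them were at 0. The complement gene C1qa had 23, 99 and 179 counts in the ACVR1 WT samples and 0, 0 and 1 counts in each of the groups with H3.1K27M. Within ACVR1 WT, the replicate with the lowest marker sum also had the lowest levels of H2-K1, H2-D1, B2m and Tapbp, and the replicate with the highest sum the highest levels. Psmb8 had the same order, on 26, 28 and 32 counts. Tap1 and Psmb9 ran the other way, highest where the marker sum was lowest and lowest where it was highest, and Tap2 was also highest in the replicate with the lowest sum. The part of microglia in that spread was not tested. The 8 endothelial markers summed to 5.47 to 16.0 CPM with ACVR1 WT, 8.95 to 13.5 CPM with ACVR1 R206H, 5.15 to 5.54 CPM with ACVR1 WT plus H3.1K27M and 6.46 to 9.16 CPM with ACVR1 R206H and H3.1K27M. Of 2 tested, 0 were called with H3.1K27M and ACVR1 WT, and 1 rose and 1 fell with ACVR1 R206H, where 23% and 56.5% of all genes were called. Leaving out ACVR1 WT replicate 1, 1 of the 2 fell with ACVR1 WT, where 25.6% of all genes were lower. The 8 fibroblast and mural markers summed to 9.68 to 15.8 CPM without H3.1K27M, 16.9 to 18.1 CPM with ACVR1 WT plus H3.1K27M and 28.5 to 33.2 CPM with ACVR1 R206H and H3.1K27M, and the 7 neuron markers to 1156 to 1693 CPM without and 620.0 to 784 CPM with H3.1K27M. Map2 set most of the neuron sum, with 1366 and 1241 CPM on average without and 726 and 599.6 CPM with H3.1K27M, while Rbfox3 rose from 0.529 and 0.386 to 1.76 and 1.74 CPM. The sums and their members moved with the class I genes or against them, and their part in the result was not tested.

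**Figure D5:**
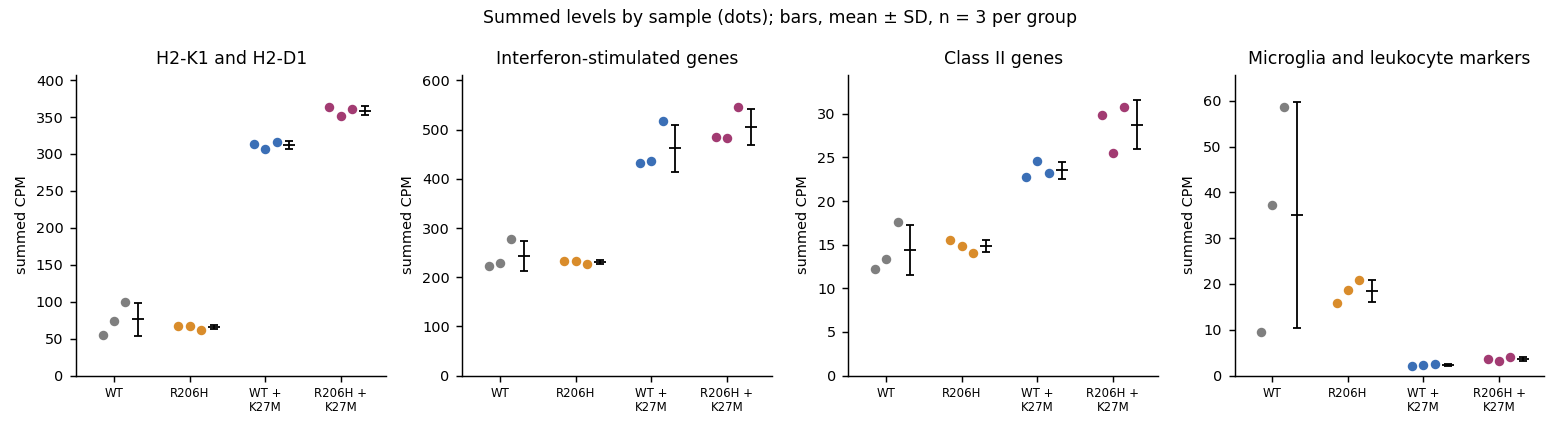
Summed CPM (vertical axis, from 0) of H2-K1 and H2-D1, of 24 interferon-stimulated genes, of 7 class II genes and of 15 microglia and leukocyte markers in the 3 samples of each group (dots), with mean and SD. The first 3 panels are higher with H3.1K27M, while the microglia and leukocyte panel falls from as much as 58.7 CPM to at most 4.04 CPM.

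Over the 12 samples, 9 of the 10 genes followed each other: the Pearson correlation of the log2 CPM of each gene with the mean of the other 9 (standardized) was 0.98 for B2m and H2-K1, 0.97 for H2-D1 and Psmb8, 0.95 for Nlrc5, 0.92 for Tap1 and between 0.79 and 0.85 for Tap2, Erap1 and Psmb9, but -0.05 for Tapbp. Since the samples fall into groups with and without H3.1K27M, these values mostly describe that split. Among 15435 other genes, those close to the mean of the 10 included Tbcel (0.995), Tmem38a and Lgals3bp (0.994 each) and Sik1 and Ifit1 (0.992 each). Tbcel had 56.2 ± 5.69 CPM (SD, n = 3) with ACVR1 WT, 59.5 ± 1.70 with ACVR1 R206H, 86.5 ± 4.80 with ACVR1 WT and H3.1K27M and 98.8 ± 3.13 with ACVR1 R206H and H3.1K27M.

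Around the class I genes on chromosome 17, between 33 and 38 Mb, 368 genes lie outside the lists, of which 109 and 108 were tested in the H3.1K27M comparisons. With ACVR1 WT 5 of them rose and 10 fell, 13.8% against 23% of all genes, and with ACVR1 R206H 20 rose and 30 fell, 46.3% against 56.5%, with a median log2 fold change of -0.04 in each. Leaving out ACVR1 WT replicate 1, 21 of 111 rose and 22 fell with ACVR1 WT, 38.7% against 52.6% of all genes. The neighbours with the smallest adjusted p were Ier3, which rose by 2.89 and 2.97, Gabbr1, a GABA receptor subunit, which fell by 1.80 and 1.54, Vwa7 and Zfp763 with ACVR1 WT, and Rps18 and Tubb5 with ACVR1 R206H. Between the receptors among samples with H3.1K27M, 14.2% of 113 neighbours were called, 8 in each direction, against 20.3% of all genes.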

How the data were processed

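RNAseq was analysed from 12 samples, 3 in each of 4 groups set by the labels. Per the labels and the study's methods, the authors aligned reads to mm10 (GRCm38) with STAR 2.6.0b-1, counted them per Ensembl gene with HTSeq and deposited raw counts, neither normalized nor pooled. Counting ignored strand, used union mode, and dropped reads of alignment quality under 10 or with more than a single match. Reads over bases shared by 2 genes, and class I reads that match several copies, are therefore missing from these counts.

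edgeR 4.0.16 (R 4.3.3) was run on the 6 samples of each comparison, over the genes whose normalized counts averaged 10 or more, with TMM, the quasi-likelihood F test and Benjamini-Hochberg adjustment over all genes tested at 0.05, and the interaction on all 12 samples. Standard errors are the log2 fold change divided by the square root of F. DESeq2 1.42.0 was an alternative, as were its size factors within edgeR, other filters, all 12 samples in one fit, the replicate number as a block, and each sample left out in turn. The scripts were tested on simulated counts. CPM uses TMM factors over the 12 samples. The ratio of H2-K1 to H2-D1, and the share of H2-K1 in the H2-K1, H2-D1 and H2-Q counts, were tested by exact permutation tests. Positions, exon lengths and transcripts are from GENCODE M21 and promoters from RefSeq. An exon length is that of the union of a gene's annotated exons over all its transcripts.

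The 10 genes and the other lists were chosen with earlier results of these data known. All 10 are named. Of each other list, the text names genes among the 4 with the smallest adjusted p in a comparison, paralogues of the 10, and Irf1, Irf2, Rfx5 and Ezh2. C1qa, P2ry12, Hes5, Pax6, Sox9, Fabp7, Vim, Map2 and Rbfox3 were chosen after their values were seen, and Psmb7 was named as the partner of Psmb10. The closest genes were taken from the 6 with the highest correlation, and the neighbours the 4 with the smallest adjusted p. Some genes that these rules name are not reported here.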

Additional observations from a re-analysis of the deposited data

How the results depend on the processing

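Beside the values already given, 267 log2 fold changes of the 10 genes kept their direction and side of the threshold under settings other than leaving out a sample, and 315 when a sample was left out, while 20 and 24 lost the call and 2 and 13 gained it. Without a filter, the interaction of Tap2 turned to -0.022. The number of genes called with ACVR1 R206H against ACVR1 WT without H3.1K27M was 26 with DESeq2 and 11 with all 12 samples in one fit. With H3.1K27M it was 440 in that fit, and the number of the 10 genes called was 4 with DESeq2 and 0 in that fit. The number of genes called with H3.1K27M and ACVR1 WT was 6335 in that fit and 2023 with the replicate number as a block. The interaction called 96 genes with DESeq2, 18 without a filter and 2 with the block. The cause of these shifts was not tested.

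Leaving out each sample in turn, between 0 and 3485 genes and between 0 and 4 of the 10 genes were called for R206H without H3.1K27M, between 1915 and 2966 genes and between 4 and 7 of the 10 for R206H with H3.1K27M, between 1037 and 8115 genes and between 6 and 10 of the 10 for H3.1K27M with ACVR1 WT, between 7589 and 8350 genes and between 9 and 10 of the 10 for H3.1K27M with ACVR1 R206H, and between 3 and 4112 genes and between 0 and 6 of the 10 for the interaction. The values 3485, 8115 and 4112 came without ACVR1 WT replicate 1, 1037 without ACVR1 WT and H3.1K27M replicate 3 and 1915 without ACVR1 R206H and H3.1K27M replicate 3. For R206H without H3.1K27M the log2 fold changes that changed sign ran from -0.32 to 0.043 for H2-K1, from -0.47 to 0.00043 for H2-D1, from -0.13 to 0.048 for B2m and from -0.45 to 0.040 for Tapbp. That of Nlrc5 for R206H with H3.1K27M ran from -0.16 to 0.062, and the interaction of Tap2 from -0.051 to 0.13.

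The deviations of same-numbered samples correlated at 0.25, 0.33 and -0.11 between ACVR1 R206H and ACVR1 WT without H3.1K27M and at -0.030 to 0.061 in the other comparisons, so in no comparison did all 3 pairs exceed 0.1, and the replicate numbers were not taken as pairs. With the block, Tap2 missed the threshold for H3.1K27M with ACVR1 WT (adjusted p = 0.090), which left 6 of the 10 genes called.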
